A study of Mus musculus with 16 samples.

Results

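*Tnf* and *Il1b* encode the inflammatory cytokines TNF-α and IL-1β, and both were followed through all peaks that the deposited table annotates to them. These are 3 of 7069 peaks and 2 of 4943 genes, chosen by gene symbol: 1 peak of *Tnf* and 2 of *Il1b*. The data are MeRIP-seq counts from mouse peritoneal macrophages (PMs), an assay in which fragmented RNA is sequenced as such (input) and after pull-down with an antibody against N6-methyladenosine (IP). PMs came from the thioglycolate-elicited peritoneal cavity of WT mice or of *Adap*-/- mice, which lack the adaptor protein ADAP, the product of *Fyb1*. They were left untreated (mock) or received 1 μg/ml LPS for 6 h, which gave 4 groups of 2 replicates and 16 libraries, 8 of them input. All mice were on the C57BL/6 background, and the labels name no other allele or agent. *Adap*-/- is a whole-animal knockout, so the cells also developed without ADAP. The number of mice per sample and whether replicates were separate cultures are not given in the sources used here, so p-values measure only the spread between these samples.

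TNF-α is made as a membrane protein, is shed by the protease ADAM17 and acts through the receptors TNFR1 and TNFR2. IL-1β is made as an inactive precursor that caspase-1 cleaves inside inflammasomes, and its receptor signals through MyD88 and IRAK kinases like TLR4, the receptor for LPS. Both genes are classic early targets of NF-κB in macrophages, and their mRNAs carry AU-rich elements that speed their decay. N6-methyladenosine (m6A) is written on mRNA by a complex around METTL3 and is known to influence mRNA decay, splicing and translation.

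The table's peaks on these genes are long and carry little positional detail. The *Tnf* peak (ENSMUSG00000024401, minus strand, chr17:35418357-35420983, GRCm39) is 2627 bases long and covers 100% of the gene, from 5′UTR to 3′UTR, introns included. Only 5 mRNA genes of the table lie wholly within a peak, and *Tnf* is among them. *Il1b* (ENSMUSG00000027398, minus strand, chr2:129206490-129213059) is split into a stop-side peak over the 3′UTR, stop codon and coding sequence (chr2:129206490-129211655, 5166 bases, 78.6% of the gene) and a start-side peak over the 5′UTR, start codon and coding sequence (chr2:129211656-129213034, 1379 bases, 21.0%). There are 0 bases between them. The median peak of the table is 175 bases long, and 363 peaks are at least as long as that of *Tnf*. A position of m6A within *Tnf* therefore cannot be read from these counts, and within *Il1b* only the start side and the stop side can be set against each other. The start-side peak is also annotated to the lncRNA gene ENSMUSG00000074805 on the opposite strand, and since counting by strand is not stated, reads of the pair cannot be told apart there.

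The promoters of both genes are in RefSeq's table (GRCm38.p6, an earlier build than that of the peaks), as windows of 300 bases from 250 before to 50 after the transcription start. They are shown because both genes rose together after LPS. TATAAA, the core of a TATA box, starts 29 bases before the start of *Tnf* and 31 bases before that of *Il1b*, and occurs on 1 strand or the other in 13.6% of 32851 windows. The 30 bases around these matches are given 5′ to 3′ on the strand of the gene, with the match in capitals.
*Tnf* TATA box, chr17:35202019-35202048, minus strand: ttccccaagggcTATAAAggcggccgtctg
*Il1b* TATA box, chr2:129371153-129371182, minus strand: gctttttaggacTATAAAacaagggaggga
AGGAAG, an ETS core, was found in the *Tnf* window on both strands and in 35.4% of windows. TGANTCA (AP-1, 7.81% of windows), TGACG (the core of a CRE, 20.8%), CCAAT (37.4%) and the consensus motif of NF-κB (8.46%), searched on both strands, were in neither window. A match is a description of letters, and no match says only that these letters are not in this window.

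Input libraries held 2121313 to 4325961 counts and IP libraries 5728590 to 19030373. Expression is the sum of input counts over a gene's peaks, in CPM (counts scaled to a common library total after TMM normalization). *Fyb1* checked the genotype labels: 244 to 257 CPM in WT mock, 349 to 377 in WT LPS, and between 35.7 and 46.7 in the 4 *Adap*-/- input libraries. Of 7 macrophage markers, 6 had a peak, with a summed level of 8972 to 9514 CPM in WT mock, 8124 to 8327 in *Adap*-/- mock, 7897 to 8048 in WT LPS and 6746 to 7230 in *Adap*-/- LPS. Of 11 neutrophil markers *Csf3r* alone had a peak (123 to 137, 163 to 164, 306 to 369 and 369 to 388 CPM in the same order), and the peaks of B cell and dendritic cell lists were *Cd22* and *Ccr7*. Lists for T and NK cells, eosinophils, mast cells and fibroblasts with mesothelium had 0 members with a peak, which in a table of peaks is not a level of 0. *Cd68* and *Lyz2* made up most of the macrophage sum (4363 and 4415 CPM in WT mock replicate 1). Single macrophage markers differed in direction between the genotypes after LPS. On the log2 scale *Fcgr1* stood at -1.28 in *Adap*-/- against WT, *Mertk* at -0.32, *Cd68* at -0.18, *Lyz2* at -0.11, *Csf1r* at 0.13 and *Adgre1* at 0.93. In bulk samples, fewer cells of a type and less RNA per cell cannot be told apart, and the part of these markers in any result below was not tested.

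LPS raised both cytokine mRNAs in both genotypes, *Tnf* to among the highest read numbers of the table. *Tnf* stood at 303 and 309 CPM in WT mock and at 366 and 471 in *Adap*-/- mock PMs, and after LPS at 40000 and 30516 in WT and 40385 and 52957 in *Adap*-/- PMs. *Il1b* stood at 11.3 and 9.16 CPM in WT mock and 10.5 and 13.1 in *Adap*-/- mock, which is 34 to 54 reads per library, and after LPS at 5981 and 4127 in WT and 8610 and 13803 in *Adap*-/- PMs. No LPS library overlapped a mock library for either gene. The *Tnf* level rose 115-fold in WT (log2 fold change 6.85, SE 0.22, edgeR adjusted p = 2.44e-13) and 111-fold in *Adap*-/- PMs (6.80, SE 0.22, adjusted p = 3.68e-13). The *Il1b* level rose 492-fold in WT (8.94, SE 0.30, adjusted p = 2.97e-13) and 944-fold in *Adap*-/- PMs (9.88, SE 0.30, adjusted p = 1.82e-13). By size, *Il1b* was the 7th highest of 4742 genes in WT and the 5th in *Adap*-/- PMs, and *Tnf* the 45th and 31st. Of all tested genes, 30.2% rose and 28.9% fell in WT, and 28.5% rose and 26.0% fell in *Adap*-/- PMs, at an adjusted p below 0.05.

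**Figure D1:**
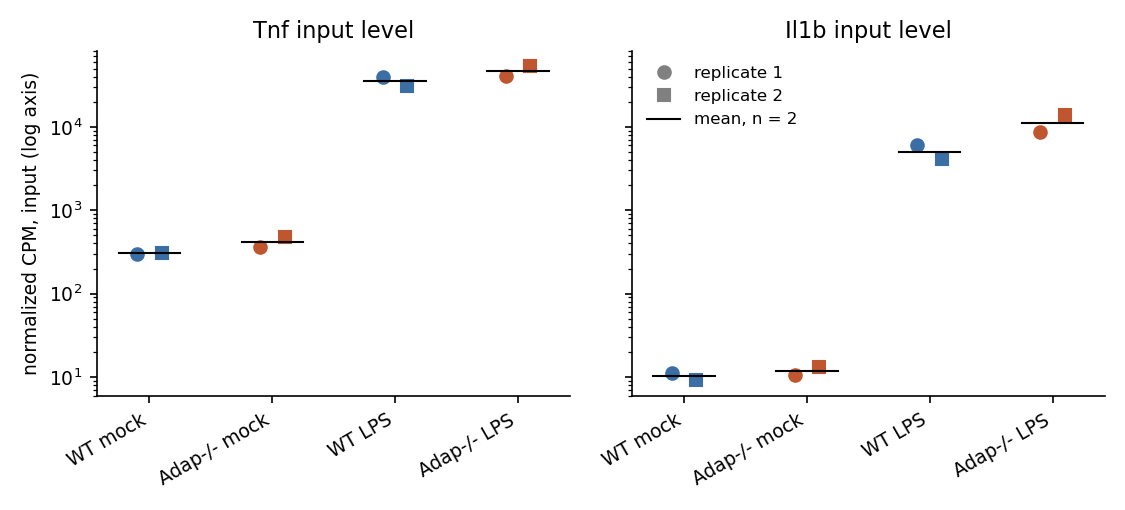
Input level of *Tnf* (left) and *Il1b* (right) in normalized CPM on a log axis, for the 4 groups on the x axis. Points are replicates and bars the mean of 2; every LPS library lies above every mock library, and after LPS the *Il1b* points of *Adap*-/- PMs (8610 and 13803) lie above those of WT (5981 and 4127).

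Reads of *Tnf* alone made up 2.98% and 2.35% of all input counts in the WT LPS libraries, where the gene ranked 3rd by read number. In *Adap*-/- LPS PMs its share was 3.39% and 4.23%, and it ranked 1st in both libraries. *Il1b* reads made up 0.445% and 0.318% in WT LPS and 0.723% and 1.10% in *Adap*-/- LPS. Without LPS, *Tnf* took 0.0520% to 0.0832% of the input counts. These shares depend on transcript length as well as on abundance, and a gene of this size enters the library total against which all others are scaled.

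The comparison of the genotypes after LPS asks whether cytokine levels differ in stimulated cells, and not whether the LPS response differs. The *Il1b* level was 2.22-fold higher in *Adap*-/- than in WT PMs after LPS, at 11207 ± 3672 against 5054 ± 1311 CPM (SD, n = 2 each; log2 fold change 1.15, SE 0.20, edgeR adjusted p = 0.00101). Both *Adap*-/- replicates lay above both WT replicates. *Tnf* stood at 46671 ± 8889 against 35258 ± 6706 CPM (SD, n = 2 each), a difference of 0.40 on the log2 scale (SE 0.17, 95% interval 0.04 to 0.77, edgeR adjusted p = 0.135), which did not pass the threshold. The replicates of *Tnf* did not overlap either, but the higher WT library (40000) and the lower *Adap*-/- library (40385) were nearly equal. Of all genes, 6.03% were higher and 9.78% lower in *Adap*-/- after LPS, and *Il1b* was the 86th highest of 4742 and *Tnf* the 741st. The *Il1b* call was kept in all 19 alternatives, with log2 fold changes from 0.77, without *Adap*-/- LPS replicate 2, to 1.45. The *Tnf* difference passed in 4 of 18 alternatives, at 0.52 with plain library totals (adjusted p = 0.0190), at 0.42 with only the 4 libraries compared (adjusted p = 0.0348) and at 0.42 without WT mock replicate 1 or 2 (adjusted p = 0.0484 and 0.0451), and it was 0.20 without *Adap*-/- LPS replicate 2 and 0.22 without WT LPS replicate 2.

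Without LPS, the *Tnf* level was 419 ± 74.2 CPM in *Adap*-/- and 306 ± 4.56 in WT PMs (SD, n = 2 each; log2 difference 0.45, SE 0.18, edgeR adjusted p = 0.0952). The *Il1b* level was 11.8 ± 1.84 against 10.2 ± 1.48 CPM (SD, n = 2 each; log2 difference 0.21, SE 0.37, edgeR adjusted p = 0.746), and its replicates overlapped. Of all genes, 8.71% were higher in *Adap*-/- without LPS. Whether the LPS response itself differed between the genotypes was tested as an interaction, which 0.358% of genes passed upwards. For *Tnf* the difference in response was -0.05 on the log2 scale (SE 0.25, edgeR adjusted p = 0.957). For *Il1b* it was 0.94 (SE 0.42, unadjusted p = 0.0406, edgeR adjusted p = 0.357), and 0.56 without *Adap*-/- LPS replicate 2, so a genotype effect particular to the stimulated state was not established for either gene.

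The 2 cytokines did not keep a fixed proportion. Counted as reads, with no correction for length, *Il1b* amounted to 3.72% and 2.96% of *Tnf* in the WT mock input libraries and 2.87% and 2.78% in *Adap*-/- mock. After LPS it amounted to 14.95% and 13.5% of *Tnf* in WT and 21.3% and 26.1% in *Adap*-/- input libraries. This ratio within a library needs no scaling between libraries. The 4 groups of input libraries fall in the order mock, WT LPS and *Adap*-/- LPS, with no overlap between mock and LPS or between the LPS groups.

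Genes whose pattern over the 8 input libraries was most like that of each cytokine were found by the root mean square distance of centred log2 CPM, over all 4742 genes. Nearest to *Tnf* was *Ccl3*, a chemokine gene whose peak also covers the whole gene, at a distance of 0.24, followed by *Rnf225* (0.30), the lncRNA gene ENSMUSG00000074805 (0.33), *Tnfsf15*, a TNF family ligand (0.37), and the lncRNA gene ENSMUSG00000113619 (0.43). The counts of ENSMUSG00000074805 are those of the start-side peak of *Il1b*, so this neighbour is not a separate measurement. Nearest to *Il1b* were *Ptgs2*, the inducible cyclooxygenase (0.34), *Il12a* (0.56), *Il6* (0.57) and the chemokines *Cxcl1* (0.66) and *Cxcl2* (0.71). *Tnf* and *Il1b* themselves were 1.29 apart. These genes were chosen over the same libraries, the LPS libraries of both genotypes included, so their genotype differences after LPS are a description with no test. On the log2 scale *Ptgs2* stood at 0.94, *Cxcl2* at 1.11, *Il12a* at 0.92, *Cxcl1* at 0.85, *Il6* at 0.28 and *Ccl3* at 0.44.

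Genes that act before or after the 2 cytokines were taken from 7 lists. Among TNF receptors and their proximal signalling, 9 of 11 genes were tested. With LPS, 7 rose and 0 fell in WT, against 30.2% and 28.9% of all genes. In *Adap*-/- PMs 8 rose and 0 fell, against 28.5% and 26.0%. The median log2 fold change was 1.45 and 1.12, against -0.03 and -0.03 over all genes. *Tnfrsf1b*, encoding TNFR2, rose by 1.80 in WT, and *Cflar*, encoding the caspase-8 inhibitor cFLIP, by 3.35. After LPS *Tnfrsf1a*, encoding TNFR1, was lower in *Adap*-/- (-0.39, SE 0.10, edgeR adjusted p = 0.0122) and *Tnfrsf1b* stood at 0.00 (SE 0.12). *Tnfrsf1a* was the only one of the 9 past the threshold, against 6.03% of all genes higher and 9.78% lower. The number lower fell to 0 in 3 of 17 alternatives (library totals, without *Adap*-/- LPS replicate 2 and without WT LPS replicate 2), and the number higher was 1 in 5, without WT mock replicate 1 or 2 among them. Without LPS, 2 of the 9 were higher in *Adap*-/- and 0 lower, against 8.71% and 8.65% of all genes. These were *Birc3*, encoding the ubiquitin ligase cIAP2, by 0.72 and *Cflar* by 0.62 (edgeR adjusted p = 0.000253 and 0.000982). Of 4 shedding genes, *Adam17*, the protease, and *Rhbdf2*, encoding its partner iRhom2, were tested and neither passed in the genotype comparison (-0.09 and 0.03). Both rose in WT with LPS, by 0.42 and 2.04, and in *Adap*-/- PMs *Rhbdf2* rose by 1.65 and *Adam17* stood at 0.13 (edgeR adjusted p = 0.285).

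Of 12 NF-κB genes and feedback inhibitors, 9 were tested, and all 9 rose with LPS in both genotypes, against 30.2% and 28.5% of all genes. *Rela*, *Relb* and *Nfkbib* had no peak. The largest rise was that of *Nfkbiz*, encoding an atypical IκB protein, by 4.37 in WT and 3.61 in *Adap*-/- PMs. This response was smaller in *Adap*-/- (interaction -0.76, SE 0.17, edgeR adjusted p = 0.0300), a call that 1.29% of all genes reached in this direction. *Tnfaip3*, encoding the deubiquitinase A20, rose by 3.01 and 2.84. Without LPS, 4 of the 9 were higher in *Adap*-/- and 0 lower, against 8.71% and 8.65% of all genes: *Nfkbiz* by 1.04 (edgeR adjusted p = 0.000137), *Nfkbie* by 0.62 (0.00221), *Tnfaip3* by 0.44 (0.0153) and *Nfkbia*, encoding IκBα, by 0.40 (0.0287). In the genotype comparison after LPS, 0 of 9 passed in either direction (6.03% and 9.78% of all genes), with differences from -0.02 for *Nfkbia* to 0.36 for *Nfkb2* and a median of 0.14 against -0.01 over all genes. The number higher after LPS was 1 or 2 in 7 of 17 alternatives, among them 2 without WT mock replicate 1 or 2 and 1 without WT LPS replicate 2 or *Adap*-/- LPS replicate 1.

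Of 11 genes of AU-rich element and cytokine mRNA decay, 4 were tested: 3 rose and 1 fell with LPS in each genotype, against 30.2% and 28.9% of all genes in WT and 28.5% and 26.0% in *Adap*-/- PMs. *Zfp36*, encoding tristetraprolin, which binds AU-rich elements, rose by 1.12 in WT and 1.02 in *Adap*-/- PMs and stood at -0.30 between the genotypes after LPS (SE 0.10, edgeR adjusted p = 0.0604). *Zfp36l1*, its relative, fell by 0.64 in WT and by 0.58 in *Adap*-/- PMs. *Tent5c*, encoding a poly(A) polymerase, was lower in *Adap*-/- after LPS (-0.68, SE 0.11, edgeR adjusted p = 0.000936) and rose less in *Adap*-/- (0.83) than in WT PMs (1.79; interaction -0.96, SE 0.17, adjusted p = 0.00752). It was the only 1 of the 4 called after LPS, and 2 were lower without WT mock replicate 1 or 2.

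The IL-1 family list had 3 of 12 genes tested, and after LPS 1 was higher and 1 lower in *Adap*-/- PMs (6.03% and 9.78% of all genes). *Il1a*, encoding IL-1α, stood at 13971 and 9824 CPM in WT LPS and 16981 and 23106 in *Adap*-/- LPS, and was higher by 0.75 (SE 0.17, edgeR adjusted p = 0.00677). The list's higher call was lost without *Adap*-/- LPS replicate 2, without WT LPS replicate 2 and with only peaks annotated to 1 gene, where *Il1a* drops out. *Il1rn*, encoding the receptor antagonist of IL-1, stood at 2217 and 2492 CPM in WT LPS and 1146 and 927 in *Adap*-/- LPS, and was lower by 1.18 on the log2 scale (log2 fold change -1.18, SE 0.12, edgeR adjusted p = 1.07e-05). *Il1rn* was also lower without LPS (-1.25). *Il1r1*, the receptor, stood at -0.01 (SE 0.29). Both *Il1a* peaks are also annotated to a lncRNA gene on the other strand.

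The inflammasome list had 7 of 11 genes tested; 3 rose and 1 fell with LPS in WT, and 3 rose and 2 fell in *Adap*-/- PMs, beside 30.2% and 28.9%, and 28.5% and 26.0%, of all genes. *Nlrp3*, the sensor that activates caspase-1, was higher in *Adap*-/- after LPS by 0.45 (SE 0.11, edgeR adjusted p = 0.0104) and without LPS by 0.79 (SE 0.12, adjusted p = 0.000567). The list's higher call after LPS was lost without *Adap*-/- LPS replicate 2 and without WT LPS replicate 1. *Aim2*, a sensor of cytosolic DNA, was lower after LPS (-0.65, edgeR adjusted p = 0.000709), and *Casp1* stood at -0.14 (SE 0.16). The number lower was 2 with only the libraries compared and without WT mock replicate 1 or 2. Of TLR4 and IL-1 receptor signalling genes, 10 of 14 were tested. With LPS, 5 rose and 2 fell in WT (30.2% and 28.9% of all genes), and 7 rose and 1 fell in *Adap*-/- PMs (28.5% and 26.0%). In the genotype comparison after LPS 4 of the 10 were higher and 0 lower, against 6.03% and 9.78% of all genes. The list median was 0.32, against -0.01 over all genes. Those higher were *Tlr4* (0.59), its coreceptor *Cd14* (0.49), the adaptor *Ticam2* (0.36) and *Irak3*, a negative regulator of the pathway (0.65). The count higher rests on a few genes, and it was 2 without WT LPS replicate 2 and 3 or 4 in the other alternatives.

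**Figure D2:**
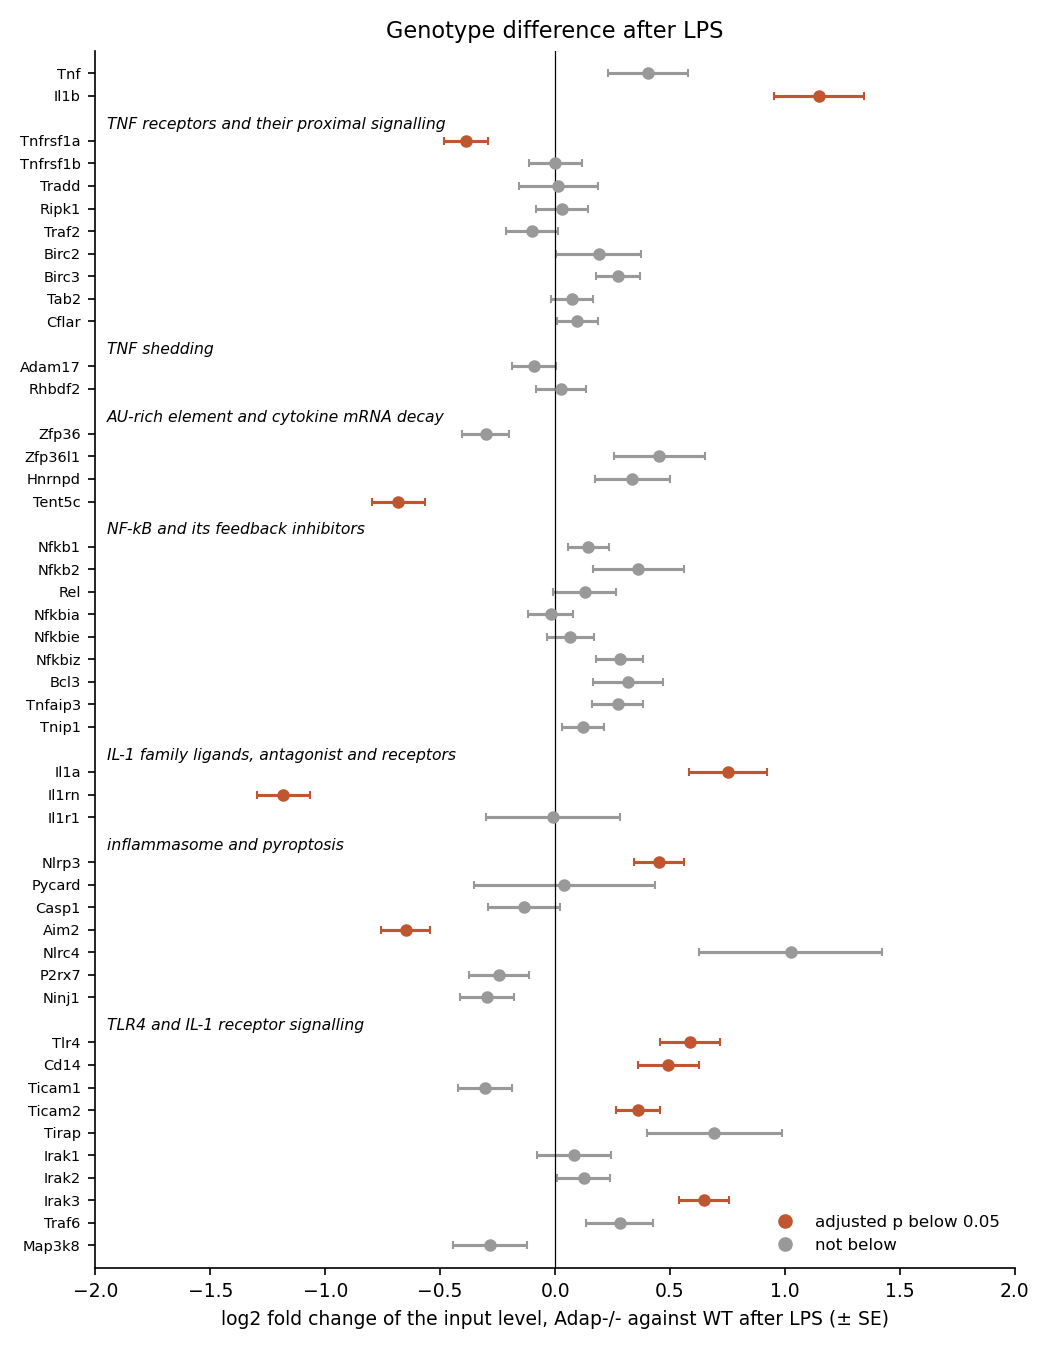
Log2 fold change of the input level, *Adap*-/- against WT after LPS, with its SE, for *Tnf*, *Il1b* and every tested gene of the 7 lists. Orange points have an edgeR adjusted p below 0.05; *Il1b* (1.15), *Il1a* (0.75) and *Il1rn* (-1.18) lie farthest from 0 among those, and the NF-κB genes hold no orange point.

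The m6A readout is the IP level of a peak over its input level in the RNA sample of the same label, both in CPM. The main tests fit a mean per group and assay and do not use this pairing. Of the mock IP libraries, 2 stood apart, so these are described before any ratio. WT mock IP replicate 1 held *Tnf* at 40.7% and the *Il1b* stop-side peak at 38.9% of the mean level of the WT LPS input libraries, and *Adap*-/- mock IP replicate 2 held them at 31.8% and 30.5% of the *Adap*-/- LPS input. The other mock IP library of each genotype held *Tnf* at 2.19% (WT replicate 2) and 3.35% (*Adap*-/- replicate 1) and the stop-side peak at 1.57% and 1.93%. All 4 mock input libraries held *Tnf* at 1.73% to 2.18% and the stop-side peak at 0.208% to 0.512%. A further 180 peaks that LPS raised in both genotypes (input log2 fold change above 5) summed to 33.5% and 30.5% in the same pair of libraries, to 2.54% and 4.39% in the other mock IP libraries and to 1.57% to 2.52% in mock input. The low mock input level of these 180 peaks follows from the way they were chosen. The start-side peak of *Il1b* stood at 60.5% in WT mock IP replicate 1 and at 35.7% in *Adap*-/- mock IP replicate 2, above the other values of the same library, and at 0% and 1.32% in the other mock IP libraries.

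**Figure D3:**
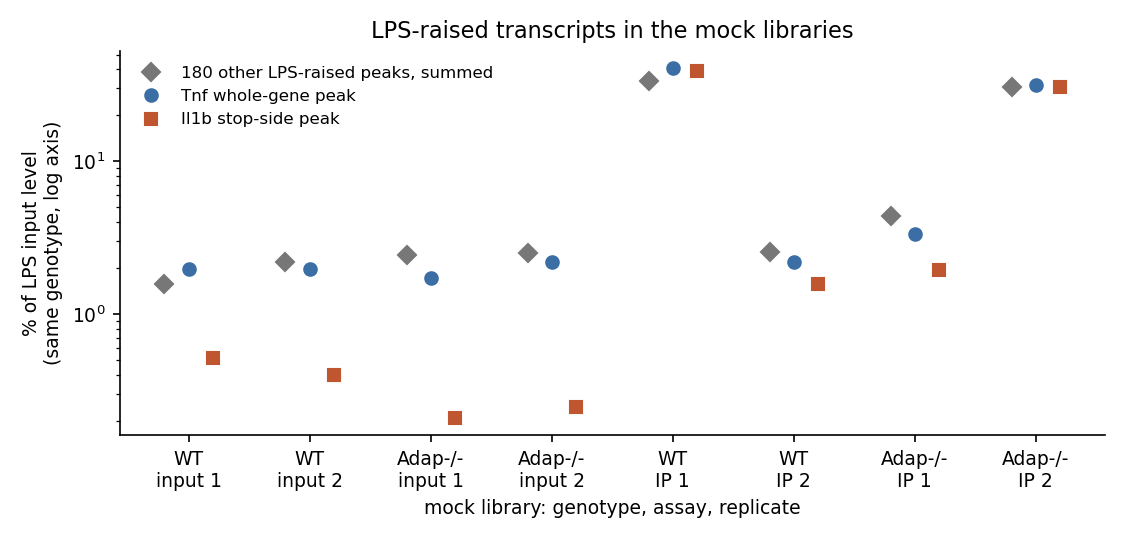
Level of *Tnf*, of the *Il1b* stop-side peak and of 180 other LPS-raised peaks in each mock library, as a percentage of the mean LPS input level of the same genotype, on a log axis. WT IP replicate 1 and *Adap*-/- IP replicate 2 lie between 30.5% and 40.7%, and every other mock library at 4.39% or below.

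The proportion of the 2 cytokines was also read in the IP libraries. *Il1b* amounted to 13.8% of *Tnf* reads in WT mock IP replicate 1 and to 23.0% in *Adap*-/- mock IP replicate 2, within the range of the LPS input libraries of the same genotype (13.5% to 14.95% and 21.3% to 26.1%). In the LPS IP libraries it amounted to 9.58% and 7.31% in WT and 12.1% and 15.8% in *Adap*-/-, and in the other mock IP libraries to 10.2% and 13.7%. After LPS the *Il1b* proportion was thus lower in IP than in input in each of the 4 RNA samples.

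After LPS, all 3 peaks had less IP than input signal, and the genotypes overlapped or nearly so. *Tnf* had a ratio of 0.196 and 0.172 in WT and 0.197 and 0.226 in *Adap*-/- PMs. The *Il1b* stop-side peak had 0.121 and 0.0872 in WT and 0.107 and 0.133 in *Adap*-/- PMs, and the start-side peak 0.560 and 0.674 in WT and 0.568 and 0.647 in *Adap*-/- PMs. For *Il1b* the WT and *Adap*-/- replicates overlapped on both peaks, and for *Tnf* both *Adap*-/- values lay just above both WT values. In the fit over all 16 libraries the genotype difference after LPS was 0.20 for *Tnf* (95% interval -3.23 to 3.63), 0.19 for the stop-side peak (-3.66 to 4.05) and 0.02 for the start-side peak (-4.02 to 4.06), each with an edgeR adjusted p of 1.00. Those intervals share the spread of the mock IP libraries. Without the RNA samples of WT mock replicate 1 and *Adap*-/- mock replicate 2 the differences were 0.22 (-0.59 to 1.03), 0.22 (-1.10 to 1.53) and 0.04 (-0.82 to 0.90), in which a lone mock sample per genotype is assumed to vary like the others. A genotype difference in the ratio was not detectable, and a change of 2-fold or more is outside the interval for the start-side peak alone. Over all 7058 peaks, edgeR called 0% higher and 0.0142% (1 peak) lower in *Adap*-/- in this comparison, with 215 and 288 at an unadjusted p below 0.05. DESeq2 called 0% higher and 0.411% (29 peaks) lower, and none of these is a peak of *Tnf* or *Il1b*.

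**Figure D4:**
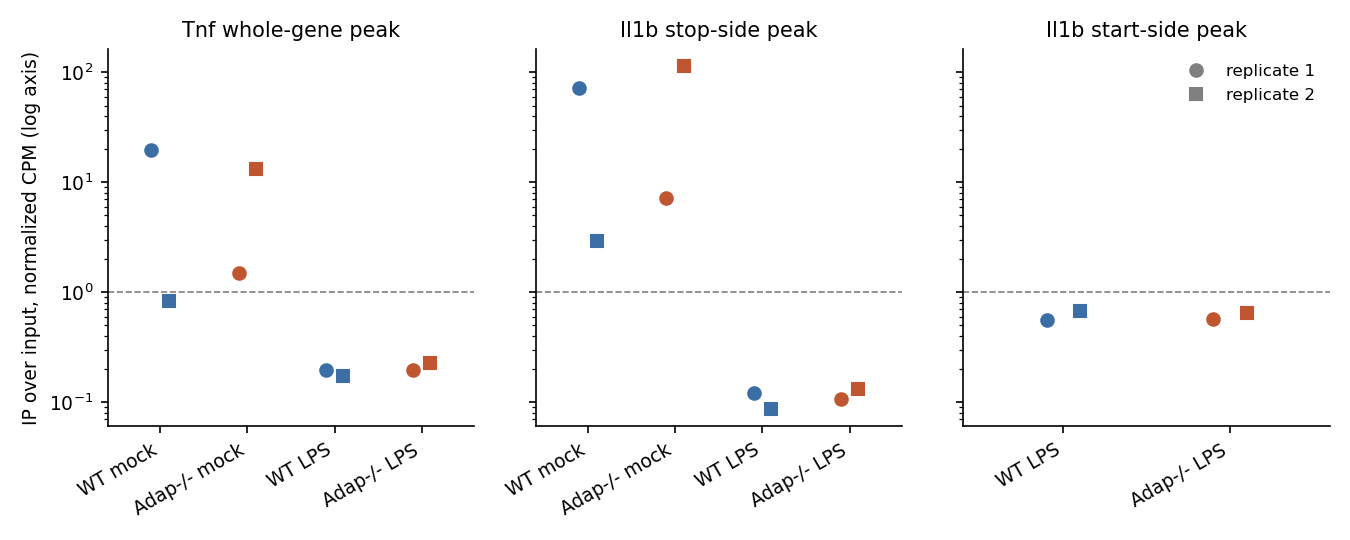
IP-to-input ratio of the 3 peaks in each RNA sample, on a log axis, with the dashed line at equal IP and input level. All LPS values lie below the line; the mock values of *Tnf* and of the stop-side peak of *Il1b* spread from 0.826 to 19.8 and from 2.92 to 114, and no mock ratio is drawn for the start-side peak, which had 0 to 2 input reads there.

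The level of the ratio set *Tnf* and the stop-side peak near the bottom of the table. Across the 4 LPS samples the *Tnf* ratio exceeded that of 2.30% to 3.83% of 7058 peaks, the stop-side peak that of 1.33% to 2.30% and the start-side peak that of 12.8% to 25.5%. Among the 540 tested peaks of at least 1000 bases, the median ratio was 0.706 to 0.956, and the positions were 11.9% to 16.3%, 6.67% to 10.6% and 24.1% to 41.9%. The 180 other LPS-raised peaks, chosen by their input, also stood low in LPS IP. They summed to 49.7% and 45.8% of the mean LPS input level in WT and to 38.2% and 41.6% in *Adap*-/- PMs. In this measure, without TMM scaling, *Tnf* stood at 26.8% to 40.9% and the stop-side peak at 12.8% to 26.2%. The start-side peak stood at 79.6% to 119%. A low value is therefore not particular to *Tnf* and the stop-side peak. A peak that spans a whole gene averages over methylated and other stretches, and the ratio is relative to the rest of the library, so a low value is a low average enrichment and not a level of methylation.

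LPS against mock gave lower ratios for *Tnf* and the stop-side peak, and their size depended on 2 mock IP libraries. The *Tnf* ratio in mock was 19.8 and 0.826 in WT and 1.51 and 13.4 in *Adap*-/- PMs, and that of the stop-side peak 72.2 and 2.92 in WT and 7.20 and 114 in *Adap*-/- PMs. Every mock value lay above every LPS value for both peaks, and how many of all peaks do the same was not counted. The log2 change with LPS was -5.77 (SE 1.68) in WT and -5.26 (SE 1.66) in *Adap*-/- PMs for *Tnf*, with edgeR adjusted p = 0.251 and 0.291. For the stop-side peak it was -8.58 (SE 2.03) and -9.05 (SE 2.05), with edgeR adjusted p = 0.209 and 0.235. No peak was called lower in either genotype by edgeR (0% and 0% of 7058; 423 and 397 at an unadjusted p below 0.05), and DESeq2 called 179 (2.54%) and 111 (1.57%) lower.

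Without the pair of mock RNA samples that stood apart, the changes with LPS and their SEs were smaller. The pair had been picked out by the IP levels of these same peaks and of other LPS-raised peaks. Leaving it out removes the higher mock ratio of each genotype and leaves 1 mock sample per genotype. Smaller changes and SEs follow from that choice, so the adjusted p values given here are a description and not a test. *Tnf* changed by -2.20 in WT (SE 0.45, edgeR adjusted p = 0.0805) and by -2.87 in *Adap*-/- PMs (SE 0.45, adjusted p = 0.0192). The stop-side peak changed by -4.81 in WT (SE 0.85, edgeR adjusted p = 0.0463) and by -5.91 in *Adap*-/- PMs (SE 0.85, adjusted p = 0.0156), against 0.822% and 1.27% of all peaks called lower in this setting. The stop-side ratio in mock rests on 33 and 40 input reads in the samples that remain. In mock IP WT replicate 2 and *Adap*-/- replicate 1 the stop-side peak still stood above its mock input level (1.57% and 1.93% against 0.208% to 0.512% of the LPS input level). The part of LPS-raised RNA in these libraries in the ratio was not tested.

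Within *Il1b*, IP reads were distributed differently from input reads after LPS. The start-side peak held 0.935% and 0.990% of *Il1b* input reads in WT LPS and 0.996% and 0.856% in *Adap*-/- LPS, and 4.17% and 7.17% of the IP reads in WT LPS and 5.05% and 4.03% in *Adap*-/- LPS. In each LPS sample the exact 95% binomial interval of the IP share lay above that of the input share, for example 3.70% to 4.69% against 0.804% to 1.08% in WT replicate 1, though intervals cover counting error only. The start-side over stop-side ratio was 4.61 and 7.73 times as high in IP as in input in WT and 5.29 and 4.86 times in *Adap*-/- PMs, with the genotypes overlapping. Each is a ratio within a library, so no scaling between libraries enters it.

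In the mock IP libraries the start-side share did not reach that level. It was 1.48% in WT replicate 1 and 1.06% in *Adap*-/- replicate 2, 0.623% in *Adap*-/- replicate 1, and 0 of 572 reads in WT replicate 2, which allows a share of up to 0.524%. The 4 values lie below all 4 LPS IP shares (4.03% to 7.17%). In WT replicate 1 the exact binomial interval (1.25% to 1.74%) lay above the LPS input shares (0.856% to 0.996%). The intervals of *Adap*-/- replicate 1 (0.341% to 1.04%) and replicate 2 (0.911% to 1.24%) overlapped the range of the LPS input shares. The counts thus did not separate these *Adap*-/- mock IP libraries from LPS input. Mock input libraries gave 0 to 2 start-side reads among 34 to 54, too few to set a share beside these. Reads on the start-side peak may come from *Il1b* or from the lncRNA gene on the other strand, and which of them carried the IP signal was not tested.

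**Figure D5:**
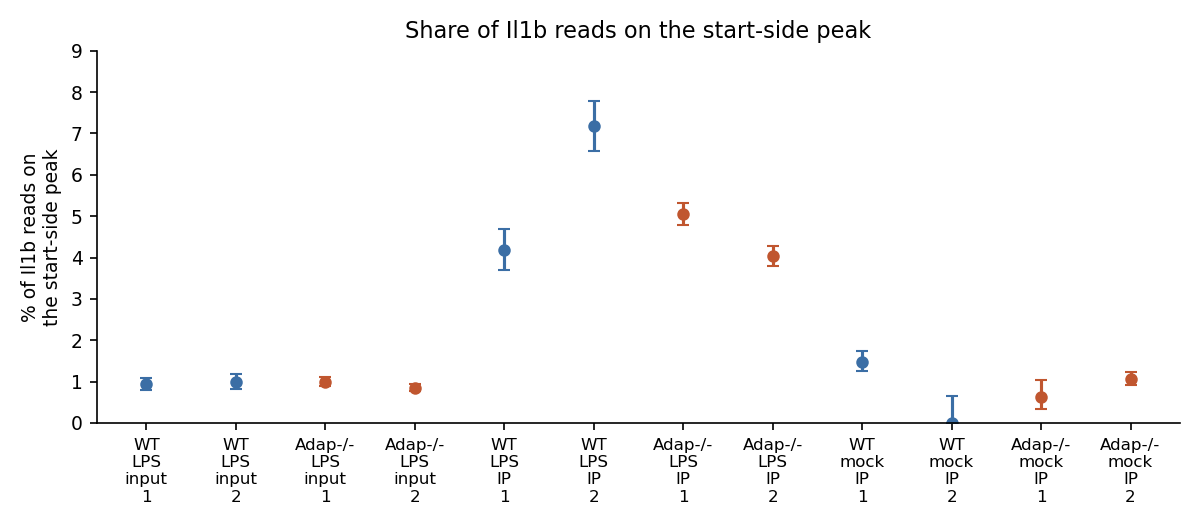
Percentage of *Il1b* reads that fell on the start-side peak in each LPS input, LPS IP and mock IP library, with exact 95% binomial intervals of the counts. LPS input libraries lie between 0.856% and 0.996%, LPS IP libraries between 4.03% and 7.17%, and mock IP libraries between 0 and 1.48%.

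IP counts taken alone gave no call for any of the 3 peaks between the genotypes after LPS. They were higher in *Adap*-/- by 0.56 for *Tnf*, 1.30 for the stop-side peak and 1.04 for the start-side peak on the log2 scale, with SEs of 1.39, 1.58 and 1.77 and edgeR adjusted p of 0.905, 0.776 and 0.858. Beside them, the input levels of the genes differed by 0.40 and 1.15. Without LPS the ratios differed between the genotypes by -0.31 (SE 1.56) for *Tnf* and 0.66 (SE 1.83) for the stop-side peak, and the LPS responses of the ratio by 0.51 (SE 2.21) and -0.47 (SE 2.54), each with an edgeR adjusted p of 1.00.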

How the data were processed

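The authors deposited 1 table of raw read counts on merged peaks with gene annotation, 16 count columns and 8094 lines for 7069 peaks. Submitters' processing notes name GRCm39, Bowtie2 2.2.8, MACS2 2.1.2 and DiffBind 2.8, with no roles. Table starts count from 0 and are printed from 1. Input counts were summed over the peaks of a gene. edgeR 4.0.16 (R 4.3.3; TMM, filterByExpr with minimum count 10 and total 15, quasi-likelihood test, Benjamini-Hochberg adjustment over all features) was fitted to 4742 genes in 8 input libraries (201 genes left out, *Tnf* and *Il1b* kept) and to the IP-to-input ratio of 7058 peaks in 16 libraries (11 left out, all 3 peaks kept). DESeq2 1.42.0, other scalings, filters, replicate blocks and left-out samples were alternatives. Scripts were tested on simulated data. Intervals cover counting error only, as PCR reads are not independent molecules. Named list genes are those past the threshold in the comparison described (at most 4 a list) plus defining members; neighbours are the 5 nearest genes. Members, lists and tests were chosen with earlier results of these data known. *Adam17*, *Rhbdf2*, *Tnfrsf1b*, *Cflar*, *Nfkb2*, *Il1r1*, *Zfp36l1* and *Casp1* were named after their values were seen where this rule does not name them. Peak sequences were not used here.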

Additional observations from a re-analysis of the deposited data

How the results depend on the processing

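The call of *Il1b* between the genotypes after LPS and the LPS responses of both genes in input stayed on their side of the threshold and in their direction in every alternative, and so did the uncalled *Il1b* comparisons of input. The *Tnf* input difference between the genotypes passed the threshold after LPS with library totals (0.52) and with only the libraries compared (0.42). As given above, it also passed after LPS when either WT mock replicate was left out (0.42). Without LPS it passed with DESeq2 (0.46), library totals (0.54) and only the libraries compared (0.46). Leaving out 1 sample at a time, it ran from 0.20 to 0.61 after LPS, and the *Tnf* interaction from -0.26 to 0.16. The LPS change of the IP-to-input ratio passed with DESeq2 for *Tnf* (-5.85 in WT, -5.41 in *Adap*-/-) and for the stop-side peak (-8.67, -9.20). Without both mock RNA samples that stood apart, each genotype has 1 mock sample. The LPS change was then -2.20 in WT and -2.87 in *Adap*-/- for *Tnf*, and -4.81 and -5.91 for the stop-side peak. With IP counts alone, a setting that does not divide by input, these changes turned positive. They were 0.87 and 1.32 for *Tnf* and 0.16 and 0.64 for the stop-side peak, none of them called. The ratio of the start-side peak between the genotypes after LPS, near 0, changed sign with DESeq2 (-0.017), library totals (-0.12), RLE scaling (-0.014), upper-quartile scaling (-0.075), TMM within IP and input (-0.0039) and the replicate block of each RNA sample (-0.018, and -0.019 with the WT mock numbers crossed), and ran from -0.14 to 0.13 without single samples. That of the stop-side peak ran from -0.0021 to 0.50. The *Tnf* ratio between the genotypes without LPS changed sign with IP counts alone (0.11), with the replicate block of each RNA sample (0.15, and 0.15 crossed) and without both mock samples (0.88), and its interaction without both (-0.66); the stop-side interaction was 0.47 with IP counts alone. Without single samples, the ratio between the genotypes without LPS ran from -2.71 to 3.31 for *Tnf* and from -2.48 to 4.48 for the stop-side peak, and the interactions from -3.10 to 2.93 and from -4.29 to 2.70. No ratio comparison between genotypes was called in any alternative, and the causes of these sign changes were not tested.

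A replicate block over all groups changed no call of *Tnf* or *Il1b* in input (*Il1b* after LPS 1.14, *Tnf* 0.39) and moved the genes called higher in *Adap*-/- after LPS from 286 to 270. Replicate differences correlated by -0.06 to 0.08 between the input libraries of different groups, so numbers were not taken as pairs. Between IP and input of 1 group the correlation was -0.10 in WT mock and 0.03 to 0.10 elsewhere. With the RNA sample as block, 7 and 6 peaks were called lower with LPS in WT and *Adap*-/- PMs, and 27 and 30 with the WT mock numbers crossed. Library totals and the crossed numbers were added after seeing the data. Scaling on *Gapdh* or *Actb* was not run, as neither has a peak, the start-side peak gave no value with at least 10 counts in every input library, and the interaction gave none with only the libraries compared. Mock *Il1b* levels rest on 34 to 54 input reads.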
